A study of Mus musculus with 24 samples.

Results

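The genes of inhibitory transmission and of cortical interneurons were followed across the 6 sample groups of a bulk RNA sequencing study of mouse medial prefrontal cortex. The set was chosen by name: 36 listed mouse symbols in 3 classes, namely 5 genes of GABA synthesis and transport, 12 of GABA receptors and their anchor, and 19 markers of interneurons. The count table held 35 of the 36 among its 56750 genes, 34 of them under the listed symbol. Tac3 was read under Tac2, of which it is a synonym in RefSeq, and Htr3a-as could not be matched and has no value here. All 35 passed the filter on low counts, as did 20354 genes in all, so no member was lost to low expression.

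Each group held 4 libraries of RNA from that tissue, and all 24 carry the genotype label 5xFAD, a mouse model of Alzheimer's disease whose transgenes are driven in neurons by the Thy1 promoter. GH_Con carries the treatment label control. SI_Con carries the treatment label SI, which the series title gives as social isolation. GH_EE and SI_EE had an enriched environment (EE), and GH_WT and SI_WT carry the label WT although their genotype is also given as 5xFAD. The GH or SI prefix of a group is called its housing below, as a name only. The labels do not say what GH and WT stand for, how old the mice were, or whether the libraries come from separate mice. The p-values therefore measure only the spread between these samples, which may be in part technical.

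Inhibitory neurons of the cortex make GABA from glutamate, load it into synaptic vesicles and release it onto GABA-A receptors, which are chloride channels, and onto GABA-B receptors, which signal through G proteins. Cortical interneurons are usually divided by markers into parvalbumin cells, somatostatin cells and a group that holds the VIP, reelin and many of the CCK cells. Loss of inhibitory tone and of interneuron function has been studied at length in mouse models of amyloid disease.

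Some libraries stood apart in ways that touch these genes. Levels are given in CPM, the count per gene scaled to the TMM-corrected library total, and marker lists as the mean log2 CPM of the list. SI_EE 1 held transcripts of cerebellum: the list of 8 granule and Purkinje cell genes averaged 8.82 there and 0.57 to 2.44 in the other 23 libraries, and all 8 genes were read in it. The 10 markers of cortical pyramidal neurons averaged 5.55 in SI_EE 1 and 6.81 to 7.51 elsewhere. GH_WT 2 and GH_WT 4 were high for the 8 markers of thalamus and habenula, at 5.03 and 5.35, where SI_EE 1 had 4.30 and no other library passed 3.58. The 14 striatal markers ranged from 2.56 in SI_EE 1 and 3.17 in GH_WT 1 to 6.11. In GH_Con 2, SI_Con 2, SI_Con 3 and SI_WT 4, longer genes read lower than in the rest. Results that rest on SI_EE 1 are therefore given with and without it. Library totals ran from 33683587 to 51274917 counts.

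No member passed the test in any comparison. With edgeR's quasi-likelihood test and Benjamini-Hochberg adjustment over all 20354 genes, 0 of 35 members had an adjusted p under 0.05 in the 7 pairwise comparisons, the 2 treatment-by-housing interactions or the joint test of the 6 groups. Few genes of any kind did: the percentage of all tested genes called was 0.00491% for GH_EE against GH_Con and for SI_EE against GH_EE, 0.0491% for the joint test and 0% for each other comparison. DESeq2 also called 0 members. Of all genes it called 0.912% in SI_EE against SI_Con, 0.163% in SI_Con against GH_Con, 0.134% in GH_EE against GH_Con and 0.109% in SI_EE against GH_EE. It called 0.0592% in SI_WT against GH_WT, 0.0494% in GH_WT against GH_Con, 0.00987% in SI_WT against SI_Con, 0.143% in the EE interaction and 0% in that of the WT arm. It gave no adjusted p for Calb1 and Pvalb. The smallest adjusted p of a member with edgeR was 0.272, for Calb1 in SI_EE against SI_Con.

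The number of members with an unadjusted p under 0.05 was 5 of 35 in SI_EE against SI_Con (Calb1, Reln, Tac2, Cck and Npy), where 12.6% of all tested genes were under that value, and 3 of 35 in GH_EE against GH_Con (6.32% of all genes), in SI_EE against GH_EE (8.7%) and in SI_WT against GH_WT (5.37%). It was 2 of 35 in GH_WT against GH_Con (3.42%) and 0 of 35 both in SI_Con against GH_Con (6.53%) and in SI_WT against SI_Con (3.84%). The interaction of EE with housing gave 0 of 35 (7.74%), that of the WT arm with housing 1 of 35 (4.52%) and the joint test 5 of 35 (8.23%). The count for SI_EE against SI_Con changed with the libraries used. Without SI_EE 1 it was 2 of 35, beside 2176 of all 20718 genes then tested. Without the 4 libraries in which longer genes read lower it was 1 of 35, beside 1946 of all 21178 genes. In the joint test edgeR gave an unadjusted p of 0.0196 for Sox2ot, 0.0199 for Tac2, 0.0328 for Calb1, 0.0373 for Slc6a11 and 0.0394 for Adarb2, with adjusted p from 0.5101 to 0.581. A p that misses the threshold does not show that a level was the same, and the intervals given with the genes show which sizes of change remain possible. In bulk tissue, fewer cells of a type and less RNA in each cell cannot be told apart.

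**Figure D1:**
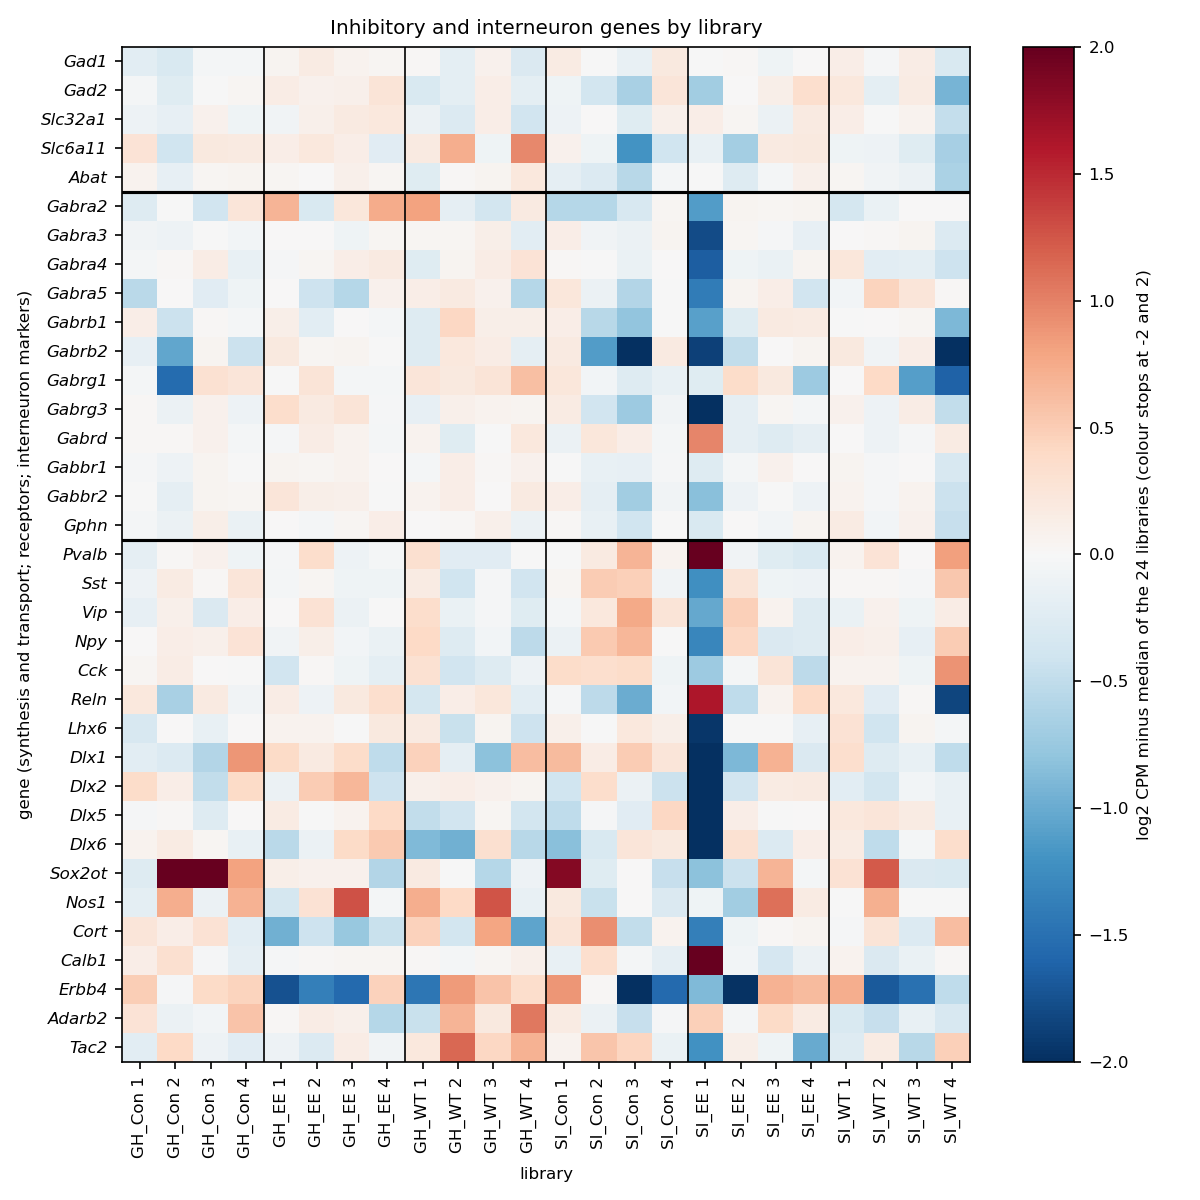
Each row is a member and each column a library, with the colour giving the log2 CPM minus the gene's median over the 24 libraries (the colour stops at -2 and 2). Horizontal lines part the 3 classes and vertical lines the 6 groups. The SI_EE 1 column stands out, with 19 members below and 4 above all other libraries, while no group forms a block of its own.

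Levels between genes were compared as CPM per kilobase of summed exon, as the mean over the 23 libraries without SI_EE 1. Sst, Npy and Cck led: Sst stood at 206, Npy at 119 and Cck at 118, followed by Gabbr1 at 87.7 and Pvalb at 83.5. Gad1 had 64.7 CPM per kilobase, above Slc32a1 at 40.3 and Gad2 at 35.9. Among the GABA-A subunits listed, Gabra3 was the highest at 43.2 and Gabrg1 the lowest at 2.31. The other peptide genes were far lower, with 11.6 for Vip, 4.31 for Cort and 3.16 for Tac2. At the low end of the markers, Dlx2 had 1.89, Adarb2 1.01 and Sox2ot 0.963. The raw counts behind these levels were large for most members, at 14002 to 27532 for Gad1, and small in single libraries for a few, at 18 for Dlx6 in SI_EE 1 and 42 for Cort in the same library.

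Of the 5 genes of synthesis and transport, Gad1, Slc32a1 and Abat had SDs within groups of 0.148, 0.184 and 0.191 (log2, without SI_EE 1), Gad2 0.295 and Slc6a11 0.404, beside a median of 0.242 over the 15513 genes with at least 1 CPM. Gad1 (ENSMUSG00000070880, chr2:70553072-70602014, plus strand) encodes the glutamate decarboxylase that makes most of the GABA of the brain. It was at 429, 405, 484 and 485 CPM in GH_Con, 517, 559, 525 and 516 in GH_EE and 508, 435, 529.6 and 407 in GH_WT. In the SI groups it was at 559.9, 496, 449 and 569 in SI_Con, 496, 509, 473 and 502 in SI_EE and 550.1, 493, 553 and 405 in SI_WT. The 4 GH_EE libraries lay above all of GH_Con and of SI_EE, without overlap, while every other pair of groups overlapped. Against GH_Con the log2 fold change in GH_EE was 0.23 (SE 0.11, unadjusted p = 0.0484, adjusted p = 0.785), with a 95% interval of 0.0017 to 0.46. In SI_Con against GH_Con it was 0.20 (SE 0.11, unadjusted p = 0.0807, adjusted p = 0.806). Its EE difference in the SI groups was -0.067, and the interaction was -0.30 (SE 0.16, unadjusted p = 0.0695, adjusted p = 0.683). Over the 7 pairwise comparisons its 95% intervals stayed within a fold of 0.80 to 1.37.

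Gad2, the decarboxylase concentrated at nerve terminals, had 210.01, 182, 214 and 221 CPM in GH_Con, 239, 229.7, 231 and 258 in GH_EE, 175, 188, 237 and 189 in GH_WT, 203, 168, 138 and 254 in SI_Con, 134, 218, 235 and 273 in SI_EE and 249, 188, 242 and 113 in SI_WT. As for Gad1, all GH_EE libraries were above all GH_Con libraries, at a log2 difference of 0.21 (SE 0.22, unadjusted p = 0.338, adjusted p = 0.917). Its lowest libraries were SI_WT 4, SI_EE 1 and SI_Con 3. Groups did not overlap in GH_EE against GH_Con for 3 of the 35 members, Gad1, Gad2 and, in the other direction, Cort, beside 8.55% of all tested genes.

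Slc32a1 encodes VGAT, the transporter that fills vesicles with GABA. It was at 107, 102, 121 and 108 CPM in GH_Con, 109.7, 124, 131 and 133 in GH_EE, 106, 94.8, 126 and 87.9 in GH_WT, 108, 115, 96.9 and 124 in SI_Con, 126, 118, 106 and 130.3 in SI_EE and 126, 115, 120.4 and 82.3 in SI_WT. All groups overlapped, and the largest difference among the 7 pairwise comparisons made was 0.18 (SE 0.13, unadjusted p = 0.175, adjusted p = 0.904) in GH_EE against GH_Con. Abat, the transaminase that breaks GABA down, ranged from 201 to 361 CPM over the libraries. In SI_Con against GH_Con its log2 fold change of -0.25 (SE 0.13, unadjusted p = 0.0686, adjusted p = 0.789) had the smallest p of any member in that comparison. SI_Con 2 and SI_Con 3, in which longer genes read lower, were the lowest libraries of SI_Con for it, at 256 and 213 CPM. With all libraries, 3 of the 5 genes of this class were lower in SI_Con against GH_Con, at a median log2 fold change of -0.12. Without the 4 libraries in which longer genes read lower, 3 of 5 were higher, at a median of 0.055. The part of gene length in the Abat difference was not tested otherwise. Slc6a11 encodes GAT-3, the GABA uptake carrier of astrocytes, and is described with the WT arm.

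The 12 receptor genes gave small differences, and how many pointed one way depended on the libraries used. In GH_EE against GH_Con 12 of 12 were higher in GH_EE, with a median log2 fold change of 0.08 beside -0.02 over all tested genes, and 0 of them had an unadjusted p under 0.05. In GH_WT against GH_Con 11 of 12 were higher, with a median of 0.10. In SI_EE against GH_EE 11 of 12 were lower at a median of -0.23, and 10 of 12 at -0.09 without SI_EE 1. In SI_WT against GH_WT 11 of 12 were lower at -0.14, and in SI_Con against GH_Con 8 of 12 at -0.07. Against SI_Con, 7 of 12 were higher in SI_EE with a median of 0.02, or 9 of 12 with 0.11 without SI_EE 1, and 8 of 12 in SI_WT. GH_Con 2, SI_Con 2, SI_Con 3 and SI_WT 4, in which longer genes read lower, were below the other 19 libraries for Gabrb1, Gabrb2, Gabbr1 and Gabbr2, and no EE library is among the 4. Without these 4 libraries, 10 of 12 receptor genes were higher in GH_EE against GH_Con (median 0.070) and 11 of 12 in GH_WT against GH_Con (0.072). In SI_Con against GH_Con the count turned to 8 of 12 higher (0.028), and in SI_EE against SI_Con to 10 of 12 lower (-0.25). In SI_WT against GH_WT 7 of 12 were then lower (-0.043), in SI_WT against SI_Con 6 of 12, and in SI_EE against GH_EE still 11 of 12 (-0.23). These comparisons share the GH_Con, GH_EE or GH_WT libraries, so the counts are not separate pieces of evidence.

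Among single receptor genes, Gabra2 (alpha 2 subunit, frequent at the axon initial segment) had 43.6, 51.8, 40.04 and 61.1 CPM in GH_Con, 83.4, 42.1, 61.1 and 87.4 in GH_EE, 34.9, 34.9, 41.6 and 53.4 in SI_Con and 23.9, 54.04, 53.6 and 54.1 in SI_EE. GH_EE held both low and high libraries, so that it overlapped with each of these groups. The log2 fold change was 0.48 (SE 0.27, unadjusted p = 0.0877, adjusted p = 0.832) in GH_EE against GH_Con and -0.56 (SE 0.27, unadjusted p = 0.0479, adjusted p = 0.573) in SI_EE against GH_EE, the latter -0.35 (SE 0.25, unadjusted p = 0.179, adjusted p = 1) without SI_EE 1. Gabbr2, which carries the GABA-B receptor to the surface, was -0.34 (SE 0.16, unadjusted p = 0.0512, adjusted p = 0.575) in the same comparison and -0.18 without SI_EE 1. Gabbr1, which binds GABA in that receptor, was the steadiest member. Its SD within groups was 0.091 on the log2 scale without SI_EE 1, smaller than in all but 3.78% of the genes with at least 1 CPM. Its intervals over the 7 pairwise comparisons lay within a fold of 0.81 to 1.20, and those of Gphn, the gephyrin scaffold of inhibitory synapses, within 0.78 to 1.25.

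Gabrb2, the beta 2 subunit of the most common cortical GABA-A receptors, varied far more than the other subunits. It was at 24.5 CPM in SI_WT 4, 34.9 in SI_Con 3, 57.8 in SI_EE 1, 97.3 in SI_Con 2 and 103 in GH_Con 2, and between 151 and 244 in the other 19 libraries. Its SD within groups of 0.907 (log2, without SI_EE 1) was larger than in 97.3% of those genes. Gabrg1, a gamma subunit, was low in SI_WT 4, GH_Con 2 and SI_WT 3, with 5.88, 6.22 and 8.45 CPM, and lay between 10.99 and 27.8 in the rest. Apart from Gabra2, 5 subunit genes were lower in SI_EE 1 than in any other library. Gabra3, an alpha subunit, had 49.9 CPM there and 143 to 188 elsewhere, Gabra4 46.01 and 108 to 174, and Gabra5, which is mostly extrasynaptic, 17.9 and 31.3 to 64.2. Gabrb1 had 74.4 CPM in SI_EE 1 and 84.8 to 209.9 elsewhere, and Gabrg3 7.31 and 26.7 to 56.1. In SI_WT against GH_WT Gabrg1 was -0.70 (SE 0.36, unadjusted p = 0.0645, adjusted p = 0.913), in GH_WT against GH_Con 0.44, and its WT arm interaction was -0.75. Single libraries moved these values: without GH_Con 2 the GH_WT difference was 0.16 and the interaction -0.48, and without SI_WT 2 the interaction was -1.13 and the difference between SI_WT and GH_WT -1.07. Without SI_WT 4 that difference was -0.44 and the interaction -0.50. Gabra4 and Gabrb1 overlap head to head on chromosome 5, and as no source used here says whether counting used strand, reads of that stretch cannot be assigned.

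Parvalbumin, somatostatin and VIP cells differ in their markers, and each marker was read by library. Pvalb (ENSMUSG00000005716, chr15:78191114-78206400, minus strand), the calcium-binding protein of fast-spiking basket and chandelier cells, was at 71.96, 82.7, 87.1 and 77.2 CPM in GH_Con, 80.2, 105, 76.002 and 79.7 in GH_EE, 103, 69.9, 70.01 and 81.6 in GH_WT, 81.2, 92.5, 131 and 86.3 in SI_Con, 502, 78.3, 68.9 and 66.2 in SI_EE and 85.9, 98.6, 81.98 and 145 in SI_WT. SI_EE 1 lay far above all others, and Purkinje cells and cerebellar interneurons also express this gene. With that library SI_EE was above GH_EE by 1.07 (SE 0.46, unadjusted p = 0.0297, adjusted p = 0.544), and without it the direction turned, to -0.26 (SE 0.19, unadjusted p = 0.177, adjusted p = 1). Against SI_Con the log2 fold change went from 0.87 to -0.45 (SE 0.19, unadjusted p = 0.0255, adjusted p = 0.446). The 3 remaining SI_EE libraries lay below all 4 SI_Con libraries. This split appeared only once SI_EE 1 was left out, and the share of all genes that show it was not counted. The 2 highest other libraries, SI_WT 4 and SI_Con 3, are among those in which short genes such as Pvalb read higher.

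Sst (ENSMUSG00000004366, chr16:23889573-23890958, minus strand) encodes somatostatin, the peptide of Martinotti and other dendrite-targeting cells, and had 132, 159, 145 and 167 CPM in GH_Con, 138, 146, 133 and 133 in GH_EE, 159, 107, 139 and 109.5 in GH_WT, 146, 202, 197 and 135 in SI_Con, 60.5, 171, 134 and 132 in SI_EE and 144, 144, 140.3 and 207 in SI_WT. Npy, the neuropeptide found in part of the somatostatin cells and in neurogliaform cells, had 63.8, 69.2, 67.9 and 76.97 in GH_Con, 60.3, 68.9, 60.7 and 57.7 in GH_EE, 83.8, 52.7, 61.2 and 43.9 in GH_WT, 58.5, 90.7, 100.5 and 62.9 in SI_Con, 25.6, 84.6, 51.9 and 53.2 in SI_EE and 69.2, 67.9, 56.3 and 90.6 in SI_WT. For both peptides SI_EE 1 was the lowest of the 24 libraries, and SI_Con 2, SI_Con 3 and SI_WT 4 were the 3 highest. These 3 are among the 4 libraries in which longer genes read lower. Fold changes of Sst and Npy without SI_Con 2 and SI_Con 3 are not reported here. In SI_EE against SI_Con, Sst was -0.45 (SE 0.22, unadjusted p = 0.0504, adjusted p = 0.397) and Npy -0.54 (SE 0.25, unadjusted p = 0.0458, adjusted p = 0.388). Without SI_EE 1 these were -0.21 (SE 0.16, unadjusted p = 0.212, adjusted p = 0.652) and -0.29 (SE 0.22, unadjusted p = 0.187, adjusted p = 0.633).

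Sst and Npy also followed each other most closely among the markers. Over the 23 libraries without SI_EE 1 their log2 CPM gave Pearson's r = 0.92 and Spearman's rho = 0.87, and r = 0.87 in the 19 libraries left when those with lower long genes were also set aside. Vip followed Npy with r = 0.74 and Sst with r = 0.67 over the 23. Pvalb did so with r = 0.70 and 0.69, and Cck with r = 0.62 and 0.71, so the Vip values do not stand out. These pairs were picked from 595 after their values were seen, they share library composition and depth, and they are given as a description with no test. The promoters of Sst, Npy and Vip are shown. Cyclic AMP response elements are a textbook feature of the somatostatin and VIP promoters, and Npy was the marker closest to Sst. Sequences are from RefSeq (GRCm38.p6), 5′ to 3′ on the strand of the gene. For Sst, 30 bases around the motif are shown (chr16:23890874-23890903, minus strand), since the GENCODE gene model reaches into this window, and for Npy (chr6:49822460-49822709, plus strand) and Vip (chr10:5638968-5639217, plus strand) the 250 bases before the annotated start. Capitals mark the palindrome TGACGTCA in Sst, which begins 48 bases before the RefSeq start, and its core TGACG in Vip, which begins 79 bases before the start.
Sst: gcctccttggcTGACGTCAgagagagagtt
Npy: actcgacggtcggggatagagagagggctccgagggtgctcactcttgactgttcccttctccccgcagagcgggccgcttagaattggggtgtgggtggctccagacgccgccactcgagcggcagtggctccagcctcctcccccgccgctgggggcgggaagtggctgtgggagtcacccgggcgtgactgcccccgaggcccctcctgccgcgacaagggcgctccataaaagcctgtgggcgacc
Vip: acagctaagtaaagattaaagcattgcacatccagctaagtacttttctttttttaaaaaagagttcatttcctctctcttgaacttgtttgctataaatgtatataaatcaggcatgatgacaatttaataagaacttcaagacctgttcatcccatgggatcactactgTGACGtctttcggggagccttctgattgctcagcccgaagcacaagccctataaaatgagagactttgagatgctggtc
The Npy window held neither TGACG nor its complement CGTCA. Of the 29 members with a window of 250 bases, TGACGTCA was found in Sst only, beside 1.55% of all 32851 windows. TGACG on either strand, which lies within TGACGTCA, was found in 7 of the 29 (Cck, Cort, Dlx2, Gad2, Nos1, Sst and Vip), beside 17.8% of all windows. A match of letters is not a shown binding site.

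Vip, the peptide of cells that mainly contact other interneurons, had 33.04, 39.99, 30.5 and 40.9 CPM in GH_Con, 37.5, 45.4, 34.2 and 36.8 in GH_EE, 47.6, 33.9, 36.5 and 31.5 in GH_WT, 35.98, 42.9, 63.1 and 44.5 in SI_Con, 18.2, 51.9, 39.2 and 30.9 in SI_EE and 33.7, 39.2, 35.1 and 40.96 in SI_WT. SI_Con held the highest library and overlapped with all other groups. Vip was 0.37 (SE 0.22, unadjusted p = 0.11, adjusted p = 0.823) in SI_Con against GH_Con and -0.32 (SE 0.22, unadjusted p = 0.157, adjusted p = 1) in SI_WT against SI_Con, the smallest member p of the latter comparison. Without SI_Con 3 these were 0.19 and -0.14. Also named there by their p were Gabra5 at 0.27, Dlx1 at -0.51 and Adarb2 at -0.22, with unadjusted p of 0.29 or more. Cck, a peptide of another basket cell type that pyramidal cells also express, was -0.46 (SE 0.21, unadjusted p = 0.0394, adjusted p = 0.371) in SI_EE against SI_Con and -0.31 (SE 0.21, unadjusted p = 0.151, adjusted p = 0.603) without SI_EE 1. Cort, the somatostatin-related peptide cortistatin, had 3.37, 3.11, 3.46 and 2.43 CPM in GH_Con and 1.43, 2.11, 1.65 and 2.06 in GH_EE, which did not overlap, at a log2 fold change of -0.77 (SE 0.37, unadjusted p = 0.0479, adjusted p = 0.784). Transcripts of Cort and Sst share a run of 21 bases, and those of Gabra2 and Gabra3 a run of 20. Whether any reads were counted under the wrong gene was not tested.

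**Figure D2:**
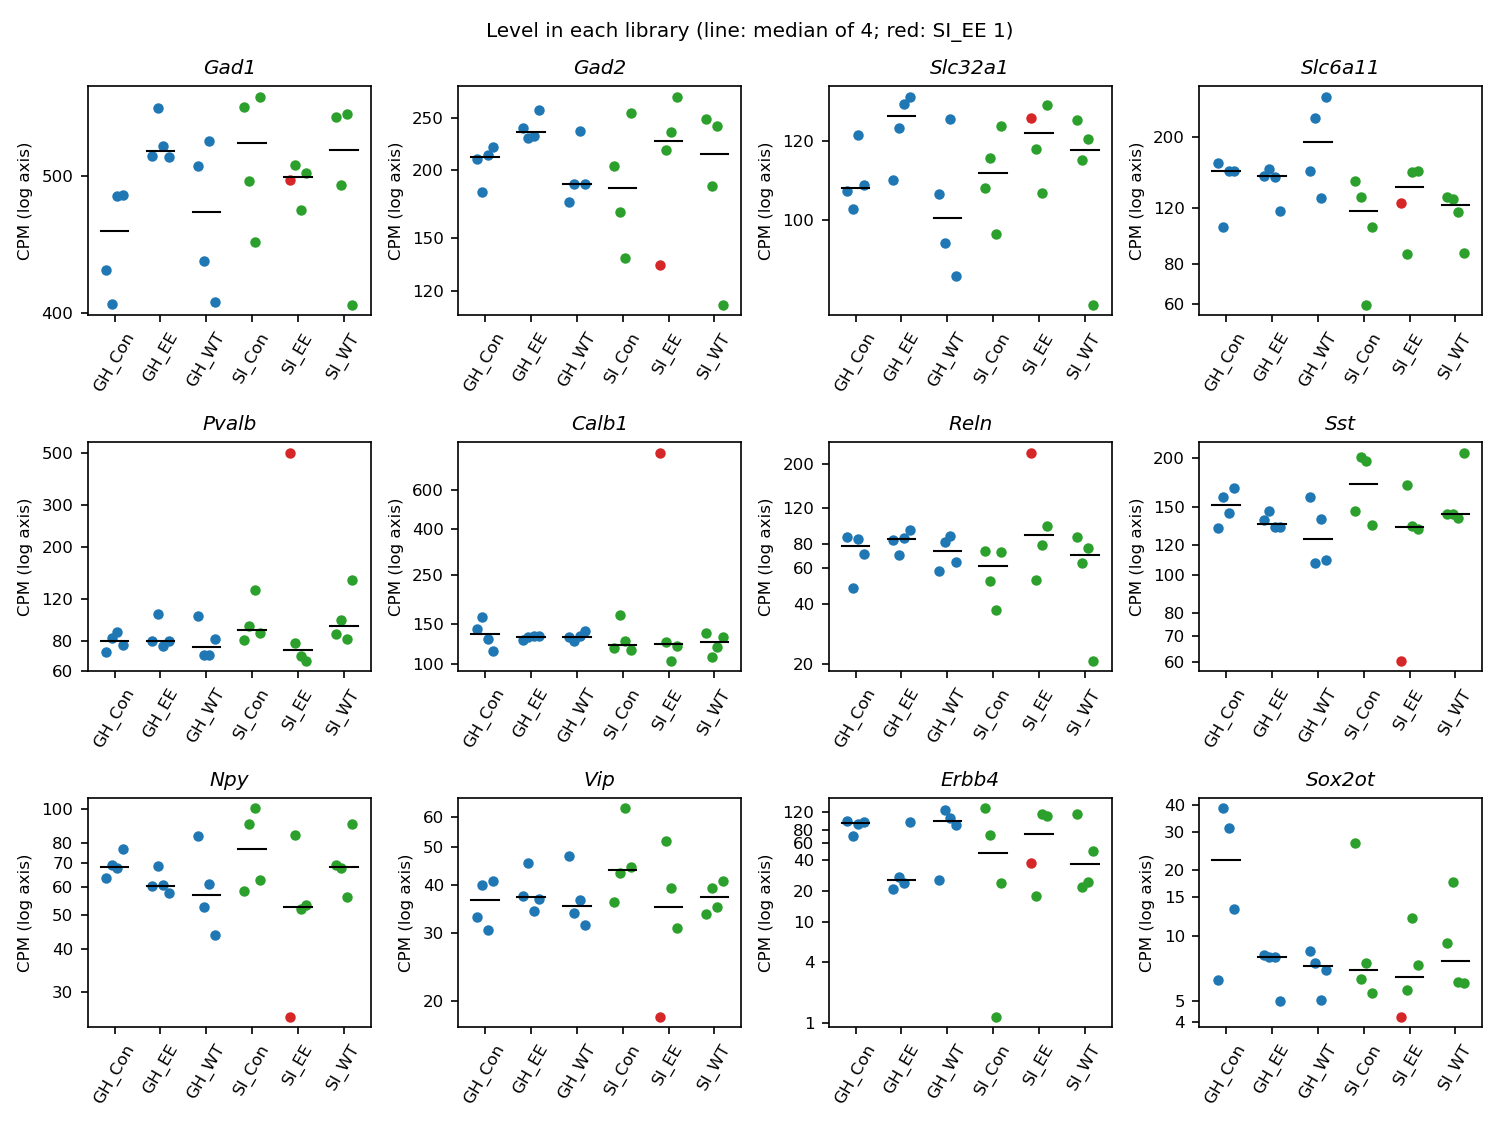
Each point is a library, with CPM on a log axis and the 6 groups along the other axis (blue, GH groups; green, SI groups; red, SI_EE 1; line, median of 4). For Pvalb, Calb1 and Reln the red point lies above every other library, and for Sst, Npy and Vip below every other, while Gad1 spans only 405 to 569 CPM.

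SI_EE 1 decided the sign of several marker differences. Calb1 (ENSMUSG00000028222, chr4:15881264-15908064, plus strand), calbindin, marks part of the somatostatin cells in cortex and nearly all Purkinje cells in cerebellum. It was at 882, 125, 103 and 119.99 CPM in SI_EE and 117, 164, 126 and 115 in SI_Con, beside 128, 131, 133 and 133 in GH_EE and 142, 162, 128 and 114 in GH_Con. Without SI_EE 1, these groups lay in 1 range of 103 to 164 CPM. Against SI_Con the log2 fold change was 1.24 (SE 0.46, unadjusted p = 0.013, adjusted p = 0.272) with SI_EE 1 and -0.16 (SE 0.12, unadjusted p = 0.212, adjusted p = 0.652) without it. Against GH_EE it went from 1.23 to -0.18, and the interaction of EE with housing from 1.29 to -0.11. The part of cerebellar tissue in these values was not tested beyond leaving the library out.

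Reln, the secreted glycoprotein of layer 1 and neurogliaform interneurons and of cerebellar granule cells, had 86.6, 47.6, 84.3 and 70.8 CPM in GH_Con, 83.1, 69.8, 85.7 and 93.8 in GH_EE, 58.4, 81.7, 87.2 and 64.5 in GH_WT, 73.3, 51.7, 37.3 and 72.2 in SI_Con, 228, 52.7, 78.3 and 97.9 in SI_EE and 86.4, 63.9, 75.9 and 20.8 in SI_WT. In SI_EE against SI_Con it was 0.96 (SE 0.39, unadjusted p = 0.021, adjusted p = 0.313), and 0.39 (SE 0.34, unadjusted p = 0.274, adjusted p = 0.705) without SI_EE 1. Reln has 23738 bases of exon, and SI_Con 2 and SI_Con 3, in which longer genes read lower, were its lowest SI_Con libraries. The part of gene length in the Reln difference was not tested. Gabrd, the delta subunit of extrasynaptic receptors, is also abundant in cerebellar granule cells. It was at 157, 70.1, 66.8 and 70.5 CPM in SI_EE, 73.9, 92.9, 87.2 and 77.3 in SI_Con and 78.7, 88.4, 83.6 and 77.3 in GH_EE. Beside SI_EE 1, the highest of all libraries, stood 3 libraries below all of SI_Con and GH_EE. With all libraries its log2 fold change against SI_Con was 0.14 (SE 0.19, unadjusted p = 0.474, adjusted p = 0.82), and without SI_EE 1 it was -0.25 (SE 0.10, unadjusted p = 0.0184, adjusted p = 0.422) against SI_Con and -0.25 (SE 0.10, unadjusted p = 0.0201, adjusted p = 1) against GH_EE. Neither Gabrd nor Pvalb passed after adjustment. The share of all genes whose groups part in this way without SI_EE 1 was not counted.

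Placed against the other 23 libraries, SI_EE 1 was above all of them for Calb1, Pvalb, Reln and Gabrd, below all for 19 members and within their range for 12. That is 11.4%, 54.3% and 34.3% of the members, beside 18.9%, 16.9% and 64.2% of all tested genes. The 19 low members were 7 receptor genes (Gabra2, Gabra3, Gabra4, Gabra5, Gabrb1, Gabrg3 and Gabbr2) and 12 markers (Sst, Vip, Npy, Cck, Lhx6, Dlx1, Dlx2, Dlx5, Dlx6, Sox2ot, Cort and Tac2). All 5 genes of synthesis and transport were within, as were Gabrb2, Gabrg1, Gabbr1 and Gphn among the receptor genes and Nos1, Erbb4 and Adarb2 among the markers. Of the transcription factors of interneuron development, Lhx6, which marks cells from the medial ganglionic eminence, was at 5.62 CPM in SI_EE 1 and 15.97 to 26.5 elsewhere. The Dlx genes, which set the GABAergic fate of forebrain neurons, were lower still: Dlx6 was at 0.454 CPM against 4.37 to 12.3, and Dlx1 at 1.08 against 6.56 to 22.8. Dlx2 and Dlx5 were at 0.655 and 0.983 CPM there. Gad1 and Slc32a1, by contrast, had 496 and 126 CPM in that library, within the range of the others.

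**Figure D3:**
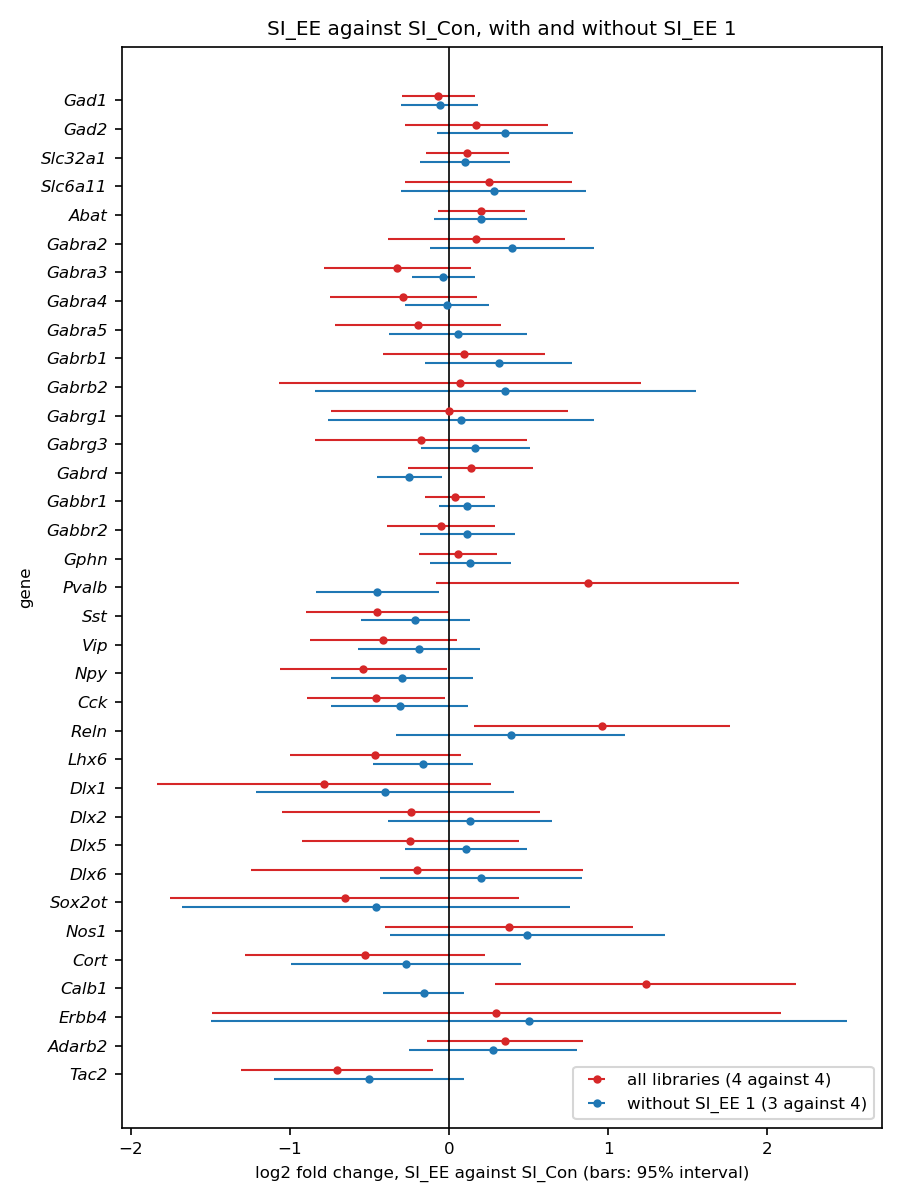
For each member the log2 fold change of SI_EE against SI_Con is plotted with its 95% interval, in red with all libraries and in blue without SI_EE 1. Calb1 and Pvalb lie right of 0 in red and left of it in blue, while the Gad1, Slc32a1 and Abat pairs nearly coincide.

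Apart from SI_EE 1, the transcription factors overlapped in most comparisons. Lhx6 was at 22.9, 22.9, 21.7 and 24.96 CPM in GH_EE and 5.62, 21.6, 21.6 and 19.3 in SI_EE, which did not overlap, and Gad1 was the other member without overlap there (2 of 35, beside 4.36% of all genes). The difference for Lhx6 was -0.44 (SE 0.26, unadjusted p = 0.104, adjusted p = 0.652), and -0.15 without SI_EE 1. Its interaction of EE with housing was -0.66 with and -0.36 without that library. Dlx2 was the only member without overlap in SI_WT against GH_WT (1 of 35, beside 3.6% of all genes), with 4.54, 4.05, 5.05 and 4.72 CPM against 5.67, 5.798, 5.6 and 5.47 and a log2 fold change of -0.30 (SE 0.39, unadjusted p = 0.455, adjusted p = 0.981). In the 4 other pairwise comparisons all 35 members overlapped, beside 4.56% (SI_Con against GH_Con), 4.23% (GH_WT against GH_Con), 4.63% (SI_EE against SI_Con) and 2.11% (SI_WT against SI_Con) of genes that did not. Dlx1 and Dlx6 have antisense partners (Dlx1as, Dlx6os1), whose reads could have been counted with them.

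Dlx6 followed the striatal markers, a list of genes of the projection neurons of the striatum, which are themselves GABAergic. Over the 23 libraries without SI_EE 1, Dlx6 log2 CPM and the list mean gave Pearson's r = 0.78 (permutation p = 1e-05, the smallest that the 100000 permutations can give; adjusted over all 20354 genes 0.00339) and Spearman's rho = 0.75 (permutation p = 8e-05). Without the 2 libraries farthest from the median, GH_WT 1 and GH_WT 2, r was 0.73. On deviations from the group means r was 0.71. No p is given for such deviations, since those within a group are tied to each other and cannot be permuted freely. Dlx5 gave r = 0.66 and rho = 0.63 (permutation p = 0.00039 and 0.00155, adjusted p of r 0.0651), and 0.52 without the 2 farthest libraries. On deviations from the group means Dlx5 gave r = 0.59, and Gabra4 gave r = 0.61 and rho = 0.62. Of all genes, 117 passed in the 23 libraries, and Dlx6 was the only member among them. Gad2, with r = 0.53 and rho = 0.69 (permutation p = 0.0155 and 0.00045, adjusted p of r 0.544), and Slc32a1, with r = 0.52 and rho = 0.71 (permutation p = 0.01095 and 0.00024, adjusted p of r 0.473), did not pass. The part of striatal tissue in Dlx levels was not tested otherwise. The striatal list ran from 3.17 to 6.11 within GH_WT alone and from 5.62 to 5.69 within GH_Con.

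**Figure D4:**
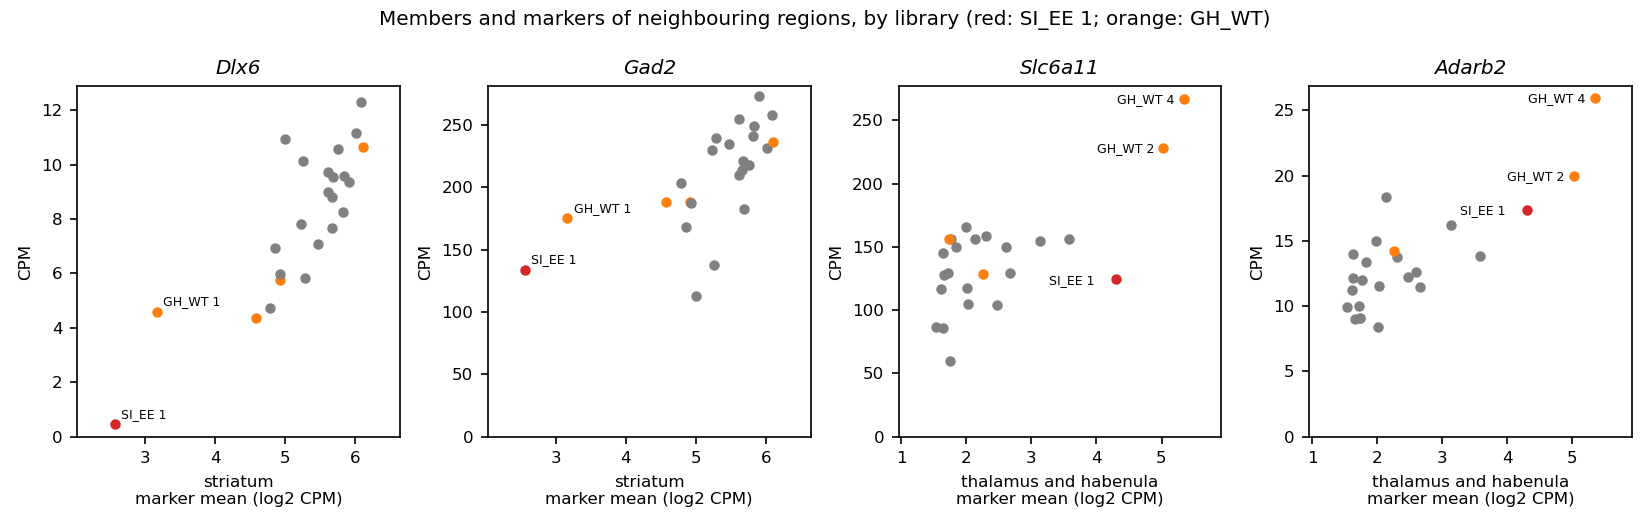
Each point is a library, with the mean log2 CPM of the striatal or thalamic marker list on the horizontal axis and the CPM of 1 member on the vertical axis (red, SI_EE 1; orange, GH_WT; grey, the rest). Dlx6 and Gad2 are low in SI_EE 1 and GH_WT 1, where striatal markers are lowest. Gad2 is lowest in SI_WT 4, where the striatal mean is 5.00. Slc6a11 and Adarb2 are highest in GH_WT 2 and GH_WT 4, the libraries with the highest thalamic marker means.

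In SI_WT against GH_WT the 3 members with an unadjusted p under 0.05 were Adarb2, Slc6a11 and Tac2. Adarb2, an RNA-binding protein of interneurons from the caudal ganglionic eminence, had 9.11, 19.99, 14.3 and 25.98 CPM in GH_WT and 10.01, 9.03, 11.2 and 9.93 in SI_WT, a log2 fold change of -0.79 (SE 0.24, unadjusted p = 0.00328, adjusted p = 0.698). Slc6a11 had 156, 228, 129 and 267 and 129.7, 128, 116 and 86.6, at -0.76 (SE 0.25, unadjusted p = 0.00671, adjusted p = 0.747), and Tac2, the neurokinin B precursor, 4.54, 8.796, 5.23 and 6.42 and 3.26, 4.41, 2.65 and 5.499, at -0.66 (SE 0.29, unadjusted p = 0.0317, adjusted p = 0.878). For all 3, GH_WT 2 and GH_WT 4 were the 2 highest of the 24 libraries, and these are the libraries with the highest thalamic marker means. Tac2 is abundant in the habenula, and Slc6a11 in the thalamus. Without these and SI_EE 1 the log2 fold changes were -0.22 (SE 0.23, unadjusted p = 0.355, adjusted p = 1) for Adarb2, -0.31 (SE 0.28, unadjusted p = 0.297, adjusted p = 1) for Slc6a11 and -0.31 (SE 0.31, unadjusted p = 0.328, adjusted p = 1) for Tac2. GH_WT then held only GH_WT 1 and GH_WT 3, and leaving out its 2 highest libraries lowers its level in any case. SI_EE 1 and SI_EE 4, next by thalamic marker mean at 4.30 and 3.58, had the 2 lowest Tac2 values, 1.66 and 1.91 CPM. Slc6a11 was at 124 and 156.5 CPM in them and Adarb2 at 17.4 and 13.9. Their medians over the libraries other than SI_EE 1 were 145 and 12.2. The part of thalamic tissue in the differences between SI_WT and GH_WT was not tested.

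Against GH_Con, whose Slc6a11 levels were 166, 105, 156 and 156 CPM, GH_WT was 0.42 (SE 0.25, unadjusted p = 0.11, adjusted p = 1), and -0.032 without the 3 libraries. Tac2 was 0.68 (SE 0.29, unadjusted p = 0.0275, adjusted p = 1) against GH_Con, and 0.33 without them. Its WT arm interaction of -0.93 (SE 0.41, unadjusted p = 0.0324, adjusted p = 1) was the only member interaction with an unadjusted p under 0.05, and came to -0.58 without them, while that of Adarb2 went from -0.50 to 0.07. In SI_EE against SI_Con, Tac2 was -0.70 (SE 0.29, unadjusted p = 0.0242, adjusted p = 0.326), and -0.50 without SI_EE 1. Adarb2 in turn had an EE by housing interaction of 0.59, and 0.52 without that library.

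Sox2ot had the largest pairwise differences of the 35 members by size. This long noncoding RNA spans Sox2 (ENSMUSG00000105265, chr3:34104270-34682619, plus strand), and reads of the 2 genes could have been mixed. It was at 6.26, 38.6, 31.4 and 13.2 CPM in GH_Con, 8.12, 7.96, 8.01 and 4.98 in GH_EE, 8.52, 7.497, 5.06 and 6.98 in GH_WT, 26.8, 6.31, 7.51 and 5.43 in SI_Con, 4.24, 5.58, 12.1 and 7.32 in SI_EE and 9.21, 17.7, 6.12 and 6.05 in SI_WT. GH_Con 2 and GH_Con 3, SI_Con 1 and SI_WT 2 stood high, while GH_Con 1 was below 3 of the 4 GH_EE libraries, so that the groups overlapped. Against GH_Con it was -1.62 (SE 0.54, unadjusted p = 0.00637, adjusted p = 0.552) in GH_EE, -1.67 (SE 0.54, unadjusted p = 0.00517, adjusted p = 1) in GH_WT and -0.96 (SE 0.53, unadjusted p = 0.0827, adjusted p = 0.808) in SI_Con. Leaving out each of the libraries in turn kept the first between -1.93 and -1.22 and the second between -1.99 and -1.27. The value in SI_Con was less steady, at -1.80 without SI_Con 1 and -0.55 without GH_Con 2. The interaction of the WT arm with housing was 1.43 (SE 0.74, unadjusted p = 0.0673, adjusted p = 1), and ran from 0.99 without SI_WT 2 to 2.29 without SI_Con 1. Its SD within groups was 0.786 on the log2 scale.

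Erbb4, the neuregulin receptor kinase of parvalbumin cells, spread widely within groups. It had 98.2, 68.995, 91.7 and 95.2 CPM in GH_Con, 20.9, 27.2, 23.8 and 96.5 in GH_EE, 25.8, 126, 105 and 89.5 in GH_WT, 129.8, 71.1, 1.16 and 23.8 in SI_Con, 37.99, 17.7, 113 and 108 in SI_EE and 115, 21.8, 24.8 and 49.4 in SI_WT. The low value of SI_Con 3 rests on 44 counts. Its SD within groups, 1.57 on the log2 scale without SI_EE 1, was larger than in 99.1% of genes with at least 1 CPM, and no other member varied as much. GH_EE against GH_Con, where 3 of 4 GH_EE libraries were below all of GH_Con, gave -1.07 (SE 0.87, unadjusted p = 0.23, adjusted p = 0.907), and intervals over the 7 comparisons ran from a fold of 0.14 to one of 5.73. Nos1, the nitric oxide synthase of long-range somatostatin cells, was also uneven, from 11.6 to 45.8 CPM over the 23 libraries, with GH_EE 3, GH_WT 3 and SI_EE 3 above 40.5.

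In GH_Con 2, SI_Con 2, SI_Con 3 and SI_WT 4 the members sorted by exon length. These 4 libraries were set apart from the data, not by a label. The Spearman correlation was taken across the 35 members, between exon length and the deviation from each gene's median over the 24 libraries. It was -0.51 to -0.72 in these 4, and -0.50 to 0.60 in the other 20 libraries. SI_EE 2, at -0.50, was close to GH_Con 2, at -0.51, by the members alone. Over 19873 tested genes the correlation was -0.26 in GH_Con 2, -0.28 to -0.35 in the other 3 and -0.077 in SI_EE 2. It is a description across genes, which are not independent replicates. All 4 were below each of the 19 libraries other than these and SI_EE 1 for Reln (23738 bases of exon), Gabrb1 (13838), Gabbr1 (7764), Gabbr2 (6686) and Gabrb2 (6360). At the short end, 3 of the 4 were above all 19 for Npy (566 bases) and Sst (721), and 2 of the 4 for Pvalb (1041) and Cck (1305). Of the other short genes, Cort (677) was above in 1 of the 4 and Tac2 (1378) in 0, and 2 of the 4 were also above for Calb1, which at 4846 bases is not short. Gad2, Abat, Gabrg3 and Gphn were below in 3 of the 4. Of these libraries 2 belong to SI_Con, 1 to GH_Con, 1 to SI_WT and none to either EE group, so that comparisons of EE with Con or of SI_Con with GH_Con hold unequal numbers of them. Without these 4 libraries 0 members were called in any comparison, and the part of gene length in the group differences was not tested otherwise.

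**Figure D5:**
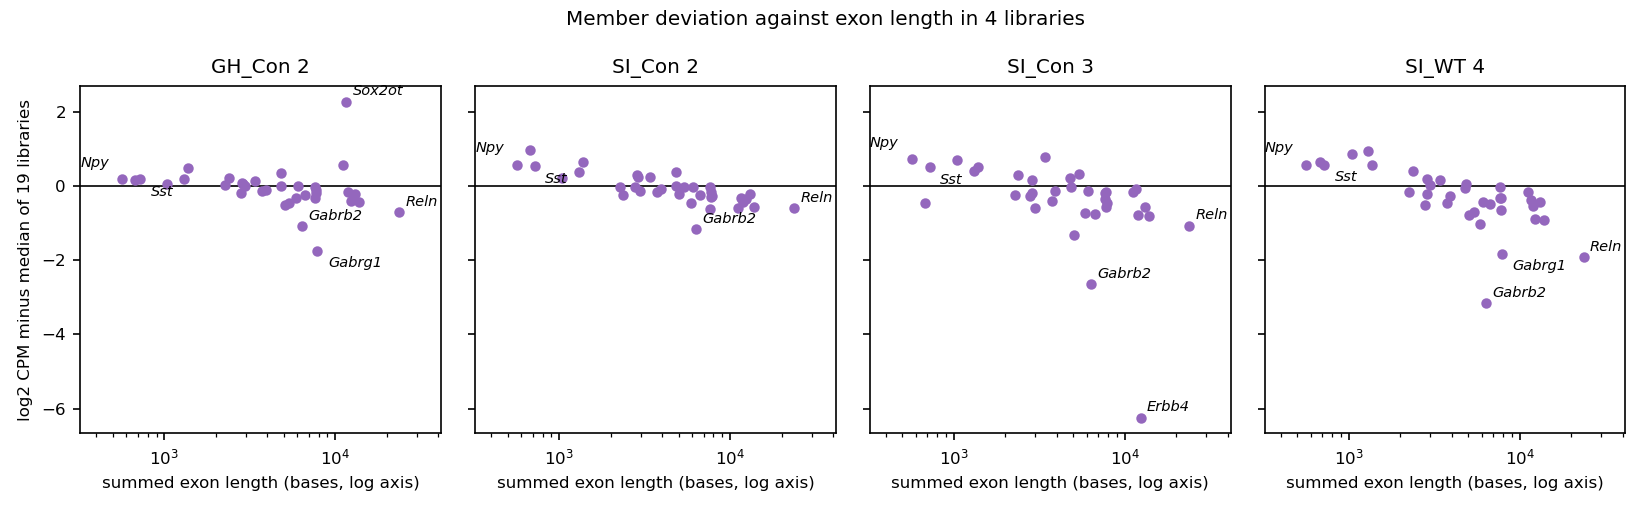
Each point is a member, with its summed exon length on a log axis and, on the vertical axis, its log2 CPM in the named library minus the median of 19 libraries. Short peptide genes such as Npy and Sst lie above 0 and long genes such as Reln and Gabrb2 below 0 in all 4 libraries.

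Of 30 further GABA genes 29 were tested, and of 30 further interneuron genes 29, with Tac2 taken out as a member and 0 of either list called in any comparison. At an unadjusted p under 0.05 there were 3 GABA genes (Gabra6, Slc12a2 and Gabarapl1) and 5 interneuron genes (Cox6a2, Cnr1, Prox1, Kit and Calb2) in SI_EE against SI_Con, of 29 each and beside 12.6% of all genes. Gabra6, Kit and Calb2 were highest in SI_EE 1, at 342, 133 and 369 CPM. Without that library there were 3 (Kctd8, Slc12a2 and Gabarapl2) and 4 (Cox6a2, Prox1, Cnr1 and Dlx6os1), beside 2176 of all 20718 genes then tested. In SI_EE against GH_EE there were 2 interneuron genes (Calb2 and Prox1), beside 8.7% of all genes, and 0 without SI_EE 1. In GH_EE against GH_Con there were 1 GABA gene (Slc38a2) and 0 interneuron genes, beside 6.32%, and in GH_WT against GH_Con 1 (Slc38a2) and 1 (Calb2), beside 3.42%. In SI_WT against GH_WT there were 3 (Gabre, Slc6a13 and Slc6a12) and 4 (Prox1, Calb2, Cox6a2 and Ndnf), beside 5.37%, and in SI_WT against SI_Con 1 (Gabre) and 0, beside 3.84%. The EE interaction gave 3 interneuron genes (Prox1, Cox6a2 and Calb2), beside 7.74%. The WT arm interaction gave 3 GABA genes (Slc38a2, Gabre and Clptm1) and 1 interneuron gene (Calb2), beside 4.52%. In SI_Con against GH_Con there were 4 (Slc38a2, Slc12a2, Kctd8 and Aldh5a1) and 3 (Ndnf, Cox6a2 and Prox1), beside 6.53%. Of those, Slc38a2, a neuronal glutamine carrier, was 0.61 (SE 0.16, unadjusted p = 0.000837, adjusted p = 0.426), and Slc12a2, the chloride importer NKCC1, -0.46 (SE 0.14, unadjusted p = 0.00331, adjusted p = 0.525). In SI_EE against SI_Con, Slc12a2 was 0.42 (SE 0.14, unadjusted p = 0.00624, adjusted p = 0.226), and 0.31 (SE 0.13, unadjusted p = 0.0325, adjusted p = 0.456) without SI_EE 1. Cox6a2, a respiratory chain subunit of fast-spiking cells, was -0.90 (SE 0.25, unadjusted p = 0.00156, adjusted p = 0.185) in that comparison and -0.66 (SE 0.21, unadjusted p = 0.00563, adjusted p = 0.394) without SI_EE 1, so that it kept its direction. Prox1, a factor of interneurons from the caudal eminence, was 0.91 (SE 0.27, unadjusted p = 0.00251, adjusted p = 0.193) and 0.80 (SE 0.28, unadjusted p = 0.01, adjusted p = 0.396) without SI_EE 1. Its 5 highest libraries were GH_WT 2, GH_WT 4, SI_EE 1, SI_EE 4 and SI_EE 3, at 41.4, 34.5, 34.4, 32.2 and 28.6 CPM, which are also the 5 with the highest thalamic marker means (3.58 in SI_EE 4 and 3.14 in SI_EE 3). The thalamic list was uneven in SI_EE 1. Calb2, Rora, Tcf7l2, Prkcd and Lhx9 were at 369, 176, 53.1, 37.5 and 20.8 CPM there. Slitrk6, Gpr151 and Plekhg1 were at 0.706, 0.580 and 17.6 CPM. These last genes had 12.1, 10.2 and 45.1 CPM in GH_WT 2 and 13.2, 6.45 and 97.2 in GH_WT 4. The part of thalamic tissue in the Prox1 values was not tested. The granule cell subunit Gabra6 stood at 1.13 CPM or less in every library but SI_EE 1.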

How the data were processed

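RNA of medial prefrontal cortex was sequenced in 24 libraries. The authors deposited raw counts per gene: the values are whole numbers and the library totals differ. The build was mm10, per the submitters' processing notes. Aligner, counter, annotation and strand setting were not given in the sources used here. Groups follow the sample titles. Symbols and positions are from GENCODE M21, which names 91.8% of rows. Counts were tested with edgeR 4.0.16 in R 4.3.3 (TMM, filterByExpr, robust quasi-likelihood, no covariate), with all 24 libraries in 1 fit and Benjamini-Hochberg adjustment over 20354 genes at 0.05. SE is the log2 fold change over the root of F. Log2 CPM used a prior count of 2. Correlation p-values came from 100000 permutations and were adjusted over all genes tested. Depth was 33683587 to 51274917 counts and scaling factors 0.969 to 1.14. The test was also run on simulated counts. These held no outlying libraries, so they cannot show how the test behaves on the present data. Alternatives were DESeq2 1.42.0, its size factors in edgeR, no filter, only the groups compared, a replicate block and libraries left out. All members were accounted for, with the 4 of smallest p named in each comparison and Gad1, Gad2, Slc32a1, Pvalb, Sst, Vip, Npy and Reln always given by library. Other pathway genes were named from those with the smallest p. The members and lists were chosen with earlier results of these data known. Counts of the further GABA genes in 2 of the comparisons are not reported here.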

Additional observations from a re-analysis of the deposited data

Results flagged for a closer look

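Within a group of 4 libraries, a member was set aside for a closer look when its highest or lowest library lay apart from the other 3 by more than Dixon's 95% critical value, as a share of the group's range. This held for 26 of 210 groups of 4 examined, where chance gives about 1 in 20, and 9 of the 26 were SI_EE 1. In SI_EE 1 the high ones were Calb1 at 882 CPM (103 to 125 in the other 3 libraries), Pvalb at 502 and Gabrd at 157. The low ones in that library were Gabbr2 at 249, Gabra4 at 46.0, Gabra2 at 23.9, Lhx6 at 5.62, Cort at 1.06 and Dlx5 at 0.983 CPM. SI_WT 4 was apart in 4 genes, high for Cck at 273 and Sst at 207 and low for Gabra3 at 143 and Gabrb1 at 84.8. GH_Con 2 was low for Abat at 277 and Slc6a11 at 105 and high for Tac2 at 5.21. GH_WT 4 was low for Gabra5 at 31.6 and high for Gabrg1 at 27.8. GH_EE 2 was high for Pvalb at 105 and Gabrg1 at 21.7, and GH_EE 4 high for Erbb4 at 96.5 and low for Sox2ot at 4.98. The rest were Cck in SI_Con 4 at 138 (low), Sox2ot in SI_Con 1 at 26.8, Nos1 in SI_WT 2 at 30.8 and Dlx1 in GH_Con 4 at 22.8 CPM (high). SI_EE 1 is the library with cerebellar transcripts, and GH_Con 2 and SI_WT 4 are 2 of the 4 in which longer genes read lower.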

How the results depend on the processing

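The count of members called was 0 in all 10 tests and in all 180 values from the alternatives, with a smallest adjusted p of 0.0976, in SI_EE against SI_Con without SI_EE 2. Of 604 alternative values of the 36 fold changes named by smallest p, 4 in each comparison, 594 kept their direction. Pvalb and Gabrd in SI_EE against SI_Con were not among the 36, and their sign also turned without SI_EE 1. Leaving out SI_EE 1 turned Calb1 to -0.16 in SI_EE against SI_Con, -0.18 in SI_EE against GH_EE and -0.11 in the interaction, and Pvalb to -0.26 in SI_EE against GH_EE. Leaving out GH_WT 2 and GH_WT 4 as well gave -0.17, -0.18, -0.11 and -0.26 for these, and turned Slc6a11 in GH_WT against GH_Con to -0.032 and the WT arm interaction of Adarb2 to 0.070. GH_WT then held only GH_WT 1 and GH_WT 3. Over all libraries left out singly, Calb1 ranged from -0.16 to 1.52 in SI_EE against SI_Con, -0.18 to 1.51 in SI_EE against GH_EE and -0.11 to 1.57 in the interaction, and Pvalb from -0.26 to 1.34 in SI_EE against GH_EE. Single libraries also moved other differences, none of them called, by over 1.5 times: Abat in SI_Con against GH_Con to -0.16 without SI_Con 3, Gabra5 in SI_WT against SI_Con to 0.14 without SI_Con 3, 0.17 without SI_WT 2 and 0.41 without SI_Con 1, and Adarb2 there to -0.10 without SI_Con 1. Without GH_WT 4, Adarb2 was -0.52 in SI_WT against GH_WT and -0.24 in the WT arm interaction, and Slc6a11 0.23 in GH_WT against GH_Con. Same-numbered replicates of different groups did not vary together (60 correlations of residuals, -0.28 to 0.18, median -0.01), so the numbers name libraries only. With the replicate number as a block, 0 members were called, and the smallest p of GH_EE against GH_Con was 0.00853, for Sox2ot. With 4 libraries a group, the intervals allow a fold of 0.80 to 1.37 for Gad1 and 0.14 to 5.73 for Erbb4.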
